A study of Glycine max with 4 samples.

Results

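An activation tag had been mapped on chromosome 8 in 2 of the 4 soybean plants studied. The 200 genes numbered from Glyma.08G025100 to Glyma.08G045000 are a stretch of that chromosome's lower-numbered end. They were chosen by identifier alone, 200 of the 56044 genes counted and of the 3679 on chromosome 8, and all 200 identifiers of the range were present. Soybean identifiers carry the chromosome before the letter G and a serial number behind it, so neighbouring numbers were read as neighbouring genes. The stretch is centred on Glyma.08G035100, the gene to which the authors' deposited table gives a fold ratio of 4.09, with 100 genes on the lower-numbered side and 99 on the higher-numbered side. That gene was marked by the authors on these same libraries. No genome build is stated for the tag's position, so whether and where it falls within the stretch was not known. Distances below are therefore counted in genes from the marked gene. The files do not pair these identifiers with gene names, and the 59048 genes of the reference table at hand matched 0 of them, so no member could be given a name or a function.

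An activation tag is a mobile or inserted piece of DNA that carries enhancer sequence and can raise transcription of genes beside the place where it lands. Enhancers can act from either side of a gene and over a distance, so the genes on both sides of an insertion are the ones usually examined. The element used here, mmPing20F, derives from mPing, a small rice transposon that has no transposase of its own and moves when one is supplied by another element or by a transgene.

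RNA came from shoot (meristem) tips of 5 cm with immature trifoliate leaves, taken from plants of cultivar Thorne after 1 month in a greenhouse. Tagged 1 (T162821) and tagged 2 (T162822) were transgenic plants positive for mmPing20F at chromosome 8 position 2785626. Untagged 1 (T162845) was transgenic, carried the transposase expression construct and was negative for that insertion, and untagged 2 (Thorne) was untransformed. Both tagged plants carry the same insertion, so they are 2 plants with 1 tag site, and the labels give neither the zygosity of the tag nor other insertions of these plants. The labelled tissue could not be checked against marker genes, since no gene could be named. The libraries held 27900266 to 49210060 counts, and the stretch took 0.423% and 0.444% of them in tagged plants, 0.426% in the transgenic untagged and 0.35% in the untransformed plant. Between 182 and 185 of the 200 genes had at least 1 count per library. In 13 genes all 4 libraries had 0 counts, which allows up to 3 counts per library, or 0.061 to 0.108 CPM (counting error only).

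Before the results by gene, the libraries themselves have to be compared, because 1 of the 2 untagged libraries stood apart in the stretch as it did elsewhere. Differences over 2-fold between libraries were counted where the mean of both libraries reached 50 normalized counts, which are counts divided by the authors' size factor for each library. The tagged plants differed from each other by over 2-fold at 1 of 134 genes of the stretch, or 0.746% (exact 95% interval 0.0189 to 4.09), against 1.58% of all genes. The transgenic untagged plant differed from tagged 1 at 4 of 131 genes, or 3.05% (0.838 to 7.63), and from tagged 2 at 7 of 134 genes, or 5.22% (2.13 to 10.5). The shares over all genes for these pairs were 1.86% and 3.23%. The untransformed plant differed from tagged 1, from tagged 2 and from the transgenic untagged plant at 30.4%, 33.3% and 34.8% of the genes of the stretch. The matching shares over all genes were 34.4%, 36.5% and 37.5%. These intervals cover counting over genes only, and each pair has 1 library on each side.

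**Figure D1:**
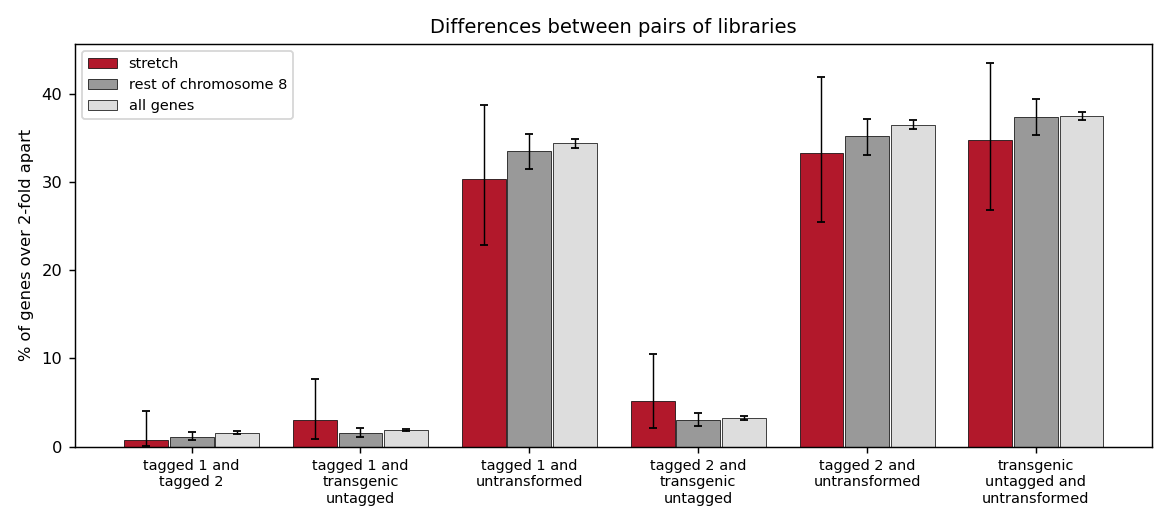
Percent of genes over 2-fold apart (vertical axis) in each of the 6 pairs of libraries, for the stretch, the rest of chromosome 8 and all genes, where the mean of both libraries reached 50 normalized counts; bars are shares and lines exact 95% intervals. The 3 pairs with the untransformed plant stand between 30.4% and 34.8% in the stretch, and the other 3 pairs between 0.746% and 5.22%.

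A pair of neighbouring genes at the centre stood over 2-fold above both controls. Glyma.08G035000, the gene numbered just before the marked one, had 1533 and 1525 normalized counts in the tagged plants, 203 in the transgenic untagged and 291 in the untransformed plant. The raw counts behind these values were 2274, 1279, 191 and 248. The tagged plants were nearly equal, and both lay far above either untagged plant. The marked gene, Glyma.08G035100, had 185 and 138 normalized counts in the tagged plants, 52.0 in the transgenic untagged and 27 in the untransformed plant, from 274, 116, 49 and 23 raw counts. Its groups did not overlap either, with more spread inside each group.

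The 5 genes on each side of the marked gene are given next. On the higher-numbered side the first gene, Glyma.08G035200, had 866 and 823 normalized counts in tagged plants against 720 in the transgenic untagged and 1022 in the untransformed plant, so the tagged plants lay between the controls. Its log2 fold change against the transgenic untagged plant was 0.24 ± 0.15 (SE). Glyma.08G035300 had 686 and 753 in tagged plants, 474 in the transgenic untagged and 1803 in the untransformed plant, so it was above one control and below the other. Glyma.08G035400 had 1866 and 1893 against 1720 and 3752, and Glyma.08G035500 had 243 and 191 against 282 and 150, again between the controls. Glyma.08G035600 was low in every plant, at 7.42 and 5.96 against 12.7 and 1.17. None of these 5 genes had both tagged plants on the same side of both untagged plants.

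On the lower-numbered side the order was more even but the sizes were small. Glyma.08G034900, the gene numbered before the pair, had 56.0 and 54.8 normalized counts in tagged plants against 42.5 in the transgenic untagged and 24.7 in the untransformed plant. Its log2 fold change with all 4 libraries was 0.72 ± 0.50 (SE). Glyma.08G034800 had 5.39 normalized counts in tagged 1 and 0 in the other 3 plants, too few to test. Glyma.08G034700 had 850 and 923 against 829 and 734, a mean 1.13-fold above the untagged plants. Glyma.08G034600 had 59.3 and 38.2 against 45.6 and 79.9, so its groups overlapped. The tested genes from Glyma.08G034700 to Glyma.08G035100 thus made a run of 4 in which both tagged plants exceeded both untagged plants. Runs at least that long were found 4 times on chromosome 8, this one included, the longest holding 5 genes, and 31 times over the 20 chromosomes, where the longest held 7. Pairs of neighbouring tested genes that both showed this order and both stood over 2-fold above the transgenic untagged plant were found 3 times on chromosome 8 and 24 times over the 20 chromosomes, and 1 of them was the central pair.

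**Figure D2:**
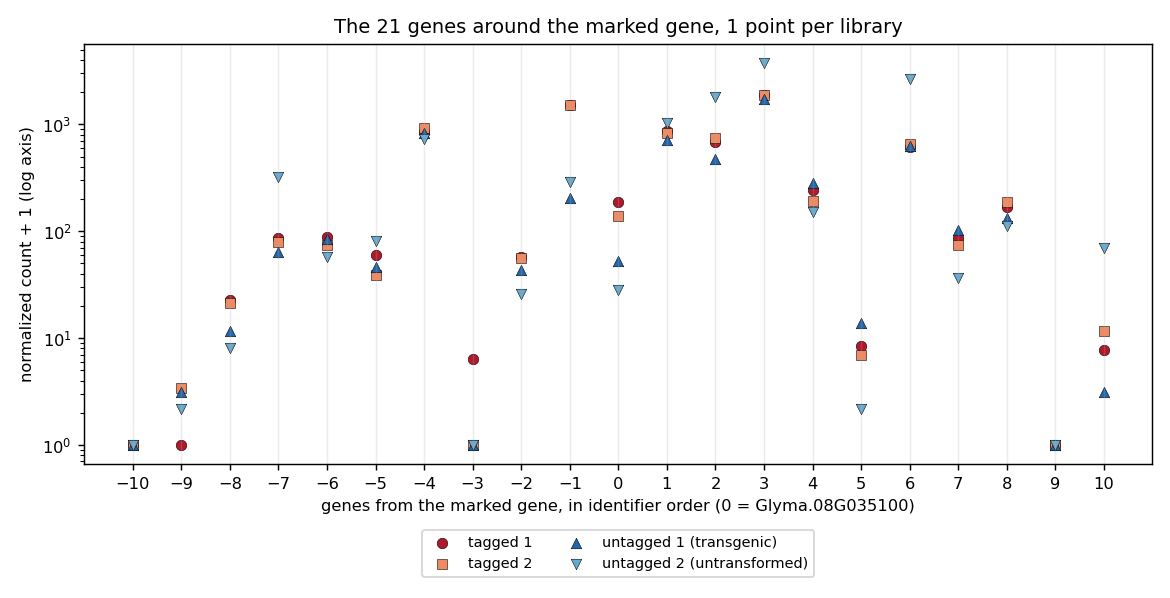
Normalized count + 1 on a log axis (vertical) for the marked gene and the 10 genes on each side of it in identifier order (horizontal), 1 point per library. At -1 the tagged plants (1533 and 1525, their points overlapping) stand clear of 203 and 291, at 0 they stand at 185 and 138 against 52.0 and 27, and at 1 the 4 libraries lie between 720 and 1022.

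How far the difference reached was first asked with all 4 libraries, as the series' design text compares them. With edgeR's quasi-likelihood test, 165 of the 200 genes passed the low-count filter. At an adjusted p of 0.05, edgeR called 0 members higher and 0 lower in the tagged plants, against 0.0% of 38824 genes in each direction. At an unadjusted p under 0.05, 2 members were higher, against 0.938% of all tested genes, and 1 was lower, against 0.206%. The higher ones were the central pair, with log2 fold changes of 2.63 ± 0.31 (SE, edgeR unadjusted p = 0.000761, adjusted p = 0.947) for Glyma.08G035000 and 2.03 ± 0.52 (edgeR unadjusted p = 0.0153, adjusted p = 0.947) for Glyma.08G035100. The test on the remaining 163 members gave 0 higher genes at the unadjusted limit, which is near the 0.938% of all tested genes. DESeq2 called 1 member higher, Glyma.08G035000 (DESeq2 adjusted p = 0.000205), against 0.0163% of all genes, and 1 lower, against 0.0707%. The lower one, Glyma.08G032800, was named after its values were seen: it had 1343 counts in the untransformed plant and 3, 1 and 7 in the other plants, and edgeR's filter left it out. A log2 fold change over 1 in size was reached by 7 members upward, against 3.5% of all tested genes, and by 13 downward, against 9.01%. Those 13 included Glyma.08G038200 and Glyma.08G041300, described below. Of them, 11 were among the 85 tested genes of the higher-numbered side (12.9%) and 2 among the 79 of the lower-numbered side (2.53%). Only Glyma.08G039200 of the 13 was also over 2-fold below the transgenic untagged plant.

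The error of this test was wider than without the untransformed library, and which untagged plant the wider error came from was not tested. The median standard error over members was 0.44 on the log2 scale with all 4 libraries and 0.2 without that library, the same as over all genes. With the transgenic untagged plant as the only control, 169 members were tested, and the lone untagged library was taken to have the same variability as the tagged plants. Glyma.08G035000 rose, with a log2 fold change of 2.92 ± 0.17 (SE, edgeR adjusted p = 0.0168), the only member called in either direction, against 0.00506% of all tested genes in each direction. It had the smallest p of the 2753 tested genes of chromosome 8 in this comparison. It had the smallest p of the 2704 with all 4 libraries as well. With limma-voom its adjusted p was 0.0572, so there the call was lost, at a log2 fold change of 2.92. The marked gene, Glyma.08G035100, stood at 1.65 ± 0.34 on the log2 scale (edgeR adjusted p = 0.27, or 0.0422 with no low-count filter) and ranked 33rd by p on chromosome 8. DESeq2 called 2 members higher, Glyma.08G035000 (DESeq2 adjusted p = 1.99e-25) and Glyma.08G044000, against 0.599% of all genes, and 0 lower, against 0.0653%.

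At an unadjusted p under 0.05, 11 members were higher than the transgenic untagged plant, against 5.9% of all tested genes, and 5 were lower, against 3.57%. As shares of the 169 tested members these are 6.51% and 2.96%, both near the background. The marked gene was among the higher ones and was chosen on these same libraries, so how they lay around it was not tested. Besides the pair, only Glyma.08G035300 among the higher ones lay within 10 genes of the marked gene, at a log2 fold change of 0.61 ± 0.16 (edgeR adjusted p = 0.335), and it was below the untransformed plant. The farthest with an unadjusted p under 0.05 on the lower-numbered side was Glyma.08G027800, 73 genes away, at 671 and 616 normalized counts in tagged plants against 487 and 585. The farthest on the higher-numbered side was Glyma.08G044000, 89 genes away.

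Over 2-fold above the transgenic untagged plant stood 4 of 169 members, or 2.37%, against 4.54% of all tested genes, and over 2-fold below it stood 3, or 1.78%, against 1.09%. The 4 were the central pair, Glyma.08G030100 at 50 genes on the lower-numbered side, and Glyma.08G044000. Glyma.08G030100 was a low gene, with 9.44 and 16.7 normalized counts in tagged plants, 3.18 in the transgenic untagged and 8.22 in the untransformed plant. Its log2 fold change was 1.96 ± 1.04 (edgeR adjusted p = 0.622), and it was too low to be tested with all 4 libraries. Glyma.08G044000 varied widely in every comparison, at 154 and 382 normalized counts in the tagged plants, 28.7 in the transgenic untagged and 508 in the untransformed plant. Its log2 fold change was 3.20 ± 0.64 against the transgenic untagged plant (edgeR adjusted p = 0.258, or 0.00869 with no low-count filter, DESeq2 adjusted p = 3.42e-05) and -0.01 ± 1.33 with all 4 libraries. Against the untransformed plant alone it was -0.93, so its direction depended on the control. Apart from the central pair, 26 of the 163 members tested with all 4 libraries had both tagged plants above both untagged plants. That is 16%, against 14.7% of all tested genes. In these 26 the tagged mean stood 1.06 to 1.97 times above the transgenic untagged plant, with a median of 1.29 and 0 over 2-fold. Glyma.08G030100 had the same order but, being untested with all 4 libraries, is not among the 26.

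In the opposite direction 1 of the members tested by edgeR against each control was over 2-fold below both. That gene, Glyma.08G039200, 41 genes on the higher-numbered side, had 12.8 and 11.9 normalized counts in tagged plants against 41.4 in the transgenic untagged and 50.5 in the untransformed plant. Its tagged plants were close to each other and so were its untagged plants, and the groups did not overlap. Its log2 fold change was -1.88 ± 0.49 with all 4 libraries (edgeR unadjusted p = 0.0159, adjusted p = 0.947) and -1.72 ± 0.56 in the 3 transgenic plants (edgeR adjusted p = 0.424), so it passed neither test. Glyma.08G038400, 33 genes away on the same side, had 88.3 and 69.1 in tagged plants against 167 in the transgenic untagged and 54.0 in the untransformed plant, a log2 fold change of -1.06 ± 0.30 in the 3 transgenic plants (edgeR adjusted p = 0.374). It lay between the controls.

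**Figure D3:**
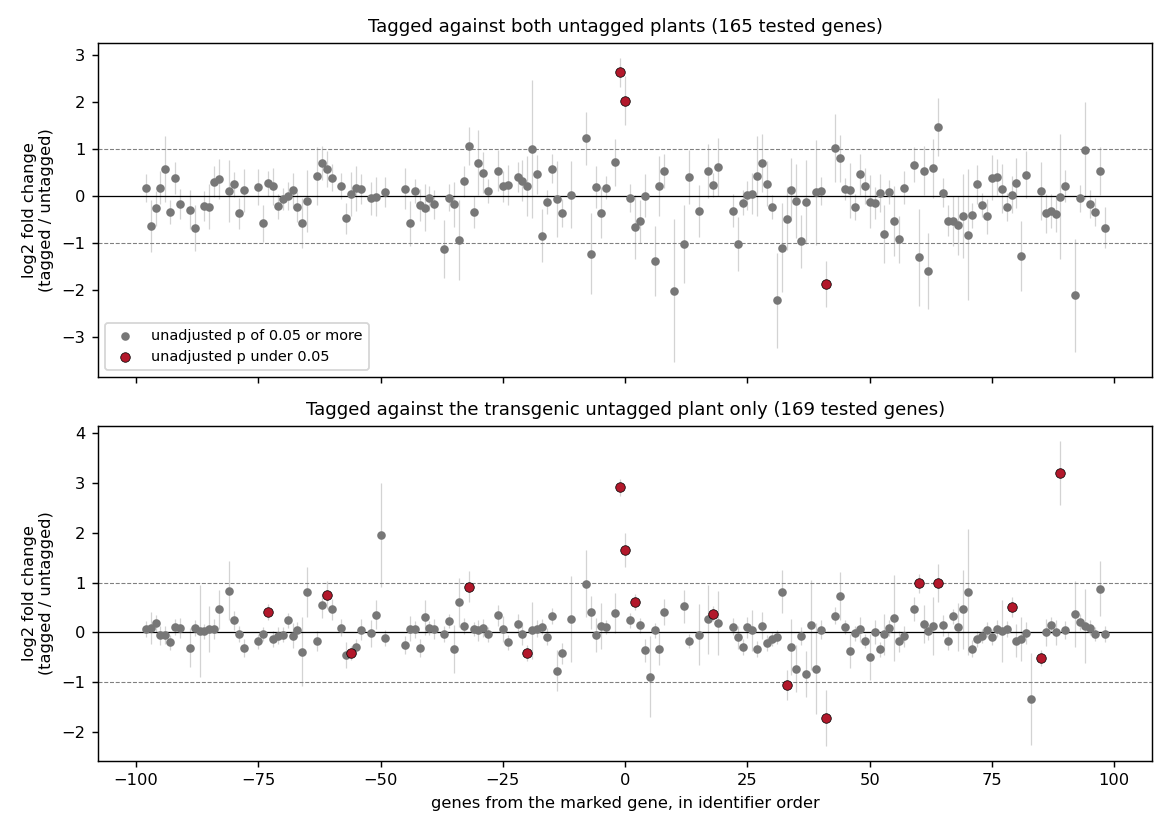
Log2 fold change of tagged over untagged plants (vertical, with its SE as a grey line) along the stretch in genes from the marked gene (horizontal), with both untagged plants as controls (top, 165 genes) and with the transgenic untagged plant alone (bottom, 169 genes); red points had an unadjusted p under 0.05 in edgeR's test. In the top panel the red points are the central pair at 2.63 and 2.03 and Glyma.08G039200 at -1.88, and in the bottom panel there are 11 higher and 5 lower red points, on both sides.

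Medians of the log2 fold changes by distance, with signs kept, lay between -0.292 and 0.392. Within 10 genes on the lower-numbered side, 7 genes were tested with all 4 libraries, with a median log2 fold change of 0.198. Without Glyma.08G035000 the median of the other 6 was 0.191. Within 10 genes on the higher-numbered side, 8 genes were tested, with a median of -0.292. From 11 to 25 genes the medians were 0.217 and -0.059 on the lower and higher sides, from 26 to 50 genes -0.035 and 0.079, and from 51 to 100 genes 0.081 and -0.16. The median over all tested genes was -0.028. Against the transgenic untagged plant alone the nearest 10 had medians of 0.392 (7 genes) on the lower side and 0.085 (8 genes) on the higher side, and without Glyma.08G035000 the lower side's other 6 had 0.258. All bands from 11 genes outward lay between -0.113 and 0.104 in that comparison, where the median over all genes was 0.008. With signs ignored, the inner 10 had larger medians, 0.723 (lower side) and 0.54 (higher side) with all 4 libraries, against 0.338 over all genes. Against the transgenic untagged plant they were 0.392 and 0.353, against 0.203 over all genes and 0.117 to 0.254 in the bands farther out. Without Glyma.08G035000 the lower side had 0.539 and 0.258 in the 2 comparisons. Whether these sizes fell with distance was not tested. With so few tested genes in the inner bands, a median moves with any single gene. The median standard error over members was 0.44 with all 4 libraries and 0.2 in the 3 transgenic plants. Within 10 genes of the marked gene, standard errors ran from 0.14 to 0.82 in the 3 transgenic plants, so small differences were undetectable.

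The order of the groups was then counted at each tested member. Both tagged plants exceeded both untagged plants at 28 of 165 members, or 17.0%, against 14.7% of all tested genes, and both lay below at 20 members, or 12.1%, against 14.4%. With 2 plants against 2 an exact two-sided permutation test of a single gene cannot go below p = 0.33. Without the central pair 26 of 163 members, or 16%, had both tagged plants higher. The lower-numbered side held 16 of these 28 among 79 tested genes (20.3%) and the higher-numbered side 11 among 85 (12.9%), the marked gene being the other one. Within 10 genes on the lower side 4 of 7 tested genes had this order and 0 the reverse, the pair's Glyma.08G035000 among the 4. The others were Glyma.08G034900, Glyma.08G034700 and Glyma.08G034300, which had 21.6 and 20.3 normalized counts against 10.6 and 7.05. Within 10 genes on the higher side 1 of 8 had it, Glyma.08G035900, at 167 and 186 against 133 and 110.

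At 59 further members the tagged plants lay wholly between the 2 untagged plants: at 29 the untransformed plant was above them (17.6%, against 17.8% of all tested genes), and at 30 it was below them (18.2%, against 20.0%). For these the sign of the difference depended on which untagged plant was used. Set beside the transgenic untagged plant alone, 58 of 169 tested members had both tagged plants higher, against 34.5% of all tested genes, and 55 had both lower, against 37.3%. Glyma.08G041100, 60 genes on the higher-numbered side, had 790 and 1001 normalized counts in tagged plants, 452 in the transgenic untagged and 3947 in the untransformed plant. Its log2 fold change was 0.99 ± 0.19 against the transgenic untagged plant (edgeR adjusted p = 0.248, or 0.0241 with no low-count filter) and -1.30 ± 1.03 with all 4 libraries. Glyma.08G043600, 85 genes on the same side, went the other way round, at 506 and 598 against 790 in the transgenic untagged and 236 in the untransformed plant, a log2 fold change of -0.51 ± 0.16 in the 3 transgenic plants (edgeR adjusted p = 0.416). Glyma.08G038200 and Glyma.08G041300 were high in the untransformed plant alone, the first at 5894 against 732, 702 and 770, and the second at 2174 against 452, 415 and 431. Their log2 fold changes with all 4 libraries were -2.22 ± 1.01 and -1.59 ± 0.81, and in the 3 transgenic plants -0.10 ± 0.14 and 0.02 ± 0.17.

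Against the untransformed plant alone, edgeR's test called 41 members higher and 40 lower of 173 tested, against 23.8% and 25.6% of all genes. Here too the control is 1 library whose own spread is not measured, and it was taken to vary as the tagged plants do. In total 46.8% of tested members passed, against 49.4% of all tested genes. In that comparison Glyma.08G035000 had a log2 fold change of 2.42 and Glyma.08G035100 of 2.61, Glyma.08G031900 (123 and 145 normalized counts against 71.1 and 56.4) of 1.27, and Glyma.08G039200 of -1.99. It shares the tagged libraries with the comparison against the transgenic untagged plant, so the values of both are set side by side only. Of the 167 members tested against each control, 2 were over 2-fold above both (1.2%, against 1.56% of all genes so tested), and these were the central pair, which holds the gene the stretch was centred on. Over 2-fold below both was 1 of the 167, Glyma.08G039200 (0.599%, against 0.222% of all genes so tested).

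**Figure D4:**
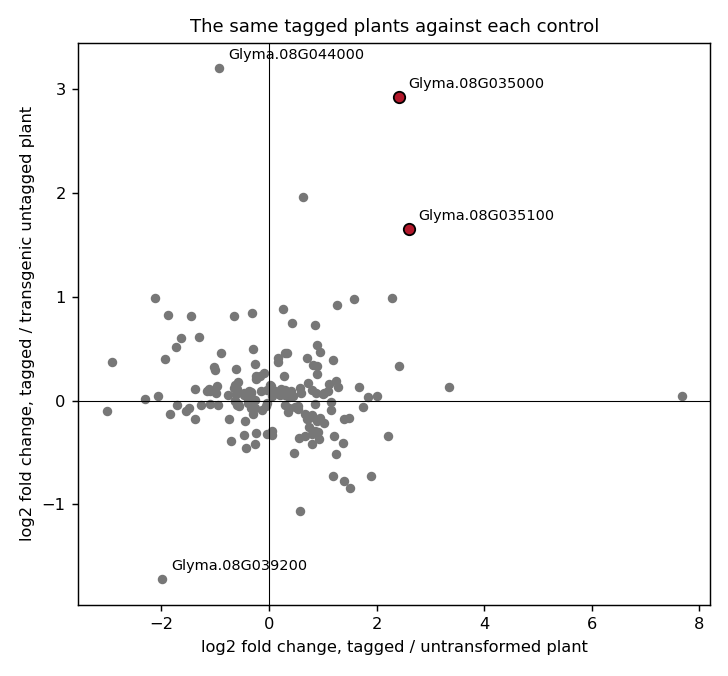
Log2 fold change of the same tagged plants against the untransformed plant (horizontal) and against the transgenic untagged plant (vertical), 1 point per gene of the stretch (167 tested in both), the central pair in red. Glyma.08G035000 (2.42 and 2.92) and Glyma.08G035100 (2.61 and 1.65) lie at upper right; the point at 7.67 on the horizontal axis is Glyma.08G033200, with 0 counts in the untransformed plant, so its place depends on edgeR's prior count.

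The stretch was set beside the 17 other stretches of 200 consecutive genes that fit on chromosome 8, laid end to end from its borders. The border was not a step in the data: Glyma.08G025000, just outside, had 95.8 and 113 normalized counts in tagged plants against 107 and 35.2, and Glyma.08G045100, just outside the other end, had 3552 and 3563 against 4530 and 2144. Just inside were Glyma.08G025100, at 0.674 and 2.38 against 2.12 and 61.1, and Glyma.08G045000, at 1.35 and 2.38 against 0 and 1.17. The share of tested genes with both tagged plants above both untagged plants, 17.0% here, ran from 8.75% to 20.9% in the other stretches, with 2 of 17 above. Without the central pair it was 16%, with 5 of 17 above. The share with both tagged plants lower, 12.1%, ran from 11.3% to 23.1% elsewhere, with 15 of 17 above.

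The sizes of change were compared in the same way. The share of genes higher than the transgenic untagged plant at an unadjusted p under 0.05, 6.51%, ran from 1.32% to 12.1% elsewhere, with 10 of 17 stretches above. The share over 2-fold above that plant, 2.37%, ran from 1.97% to 7.19% elsewhere, with 16 of 17 above. Without the central pair it was 1.2%, or 2 members, and all 17 other stretches held more such genes. The median absolute log2 fold change in that comparison was 0.168, and the other stretches ran from 0.168 to 0.23. With all 4 libraries the median absolute log2 fold change was 0.322, and the others ran from 0.271 to 0.387. Of the members other than the pair tested in the 3 transgenic plants, 86.2% lay within 1.5-fold of the untagged plant, against 85.3% of all tested genes. In the 3 transgenic plants the stretch held 1 gene past an adjusted p of 0.05 and the 17 others 0 each, with a smallest edgeR adjusted p of 0.0168 against 0.0904 to 0.297, and that value belongs to Glyma.08G035000 alone. Because the stretch was centred on a gene the authors had marked in these libraries, its holding that gene's neighbour is partly fixed by the choice.

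**Figure D5:**
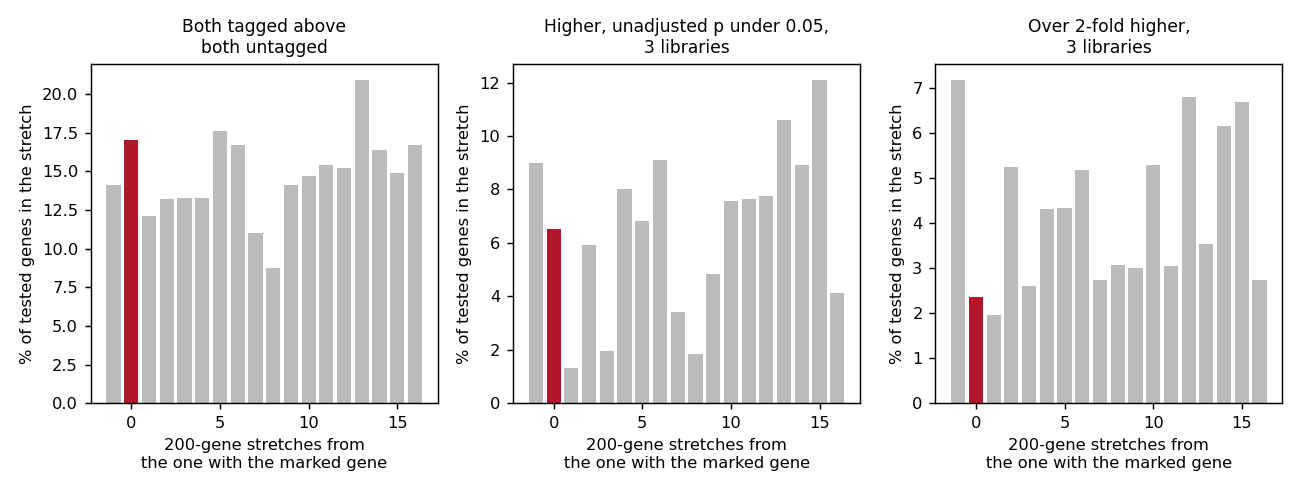
Percent of tested genes (vertical) in each 200-gene stretch of chromosome 8, numbered from the stretch that holds the marked gene (red, 0), for 3 measures: both tagged plants above both untagged plants, higher at an unadjusted p under 0.05 in the 3 transgenic plants, and over 2-fold higher in those plants. The red bars, at 17.0%, 6.51% and 2.37%, lie inside the range of the grey bars in each panel.

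Expressed as a whole, the stretch had a median of 221 and 223 normalized counts per gene in the tagged plants, 211 in the transgenic untagged and 207 in the untransformed plant. Its summed normalized counts were 140473 and 147645 in the tagged plants and 139891 and 140325 in the untagged plants. The lower share of raw counts in the untransformed plant, 0.35%, was not seen in this sum. For this sum, the tagged plants differed from each other by more than tagged 1 differed from either untagged plant. Bulk libraries cannot tell more RNA per cell from more cells of an expressing kind, for the central pair as for the stretch.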

How the data were processed

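RNA sequencing of 4 soybean plants gave 2 deposited tables over 56044 genes. The first holds raw read counts per gene, deposited by the authors; the submitters' processing notes list DESeq2, HTSeq 0.6.1, HISAT2 2.1.0 and CASAVA 1.8. The sources used here give no genome build, annotation or strand setting, so antisense or overlapping neighbours may share reads. The second holds a scaled signal deposited by the authors, counts divided by 1 size factor per library (1.48, 0.839, 0.942 and 0.852 for tagged 1, tagged 2, untagged 1 and untagged 2; 100% of values whole within 0.01 when multiplied back), called normalized counts, and 1 fold ratio deposited by the authors. Size factors equalise libraries only if most genes are alike. The design text and the labels spell the transgenic untagged plant differently by 1 digit; they were taken as 1 plant.

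Groups followed the labels. edgeR 4.0.16 (R 4.3.3; quasi-likelihood, TMM, default low-count filter, Benjamini-Hochberg over all tested genes) was fitted on all genes with 4 libraries, and again without the untransformed plant; only the stretch is printed. SE is the absolute log2 change over the square root of F. Stretches, distances and orders of groups were described with no test. Alternatives tried were limma-voom (limma 3.58.1), DESeq2 1.42.0, other scalings and filters, a block, a covariate and leaving out libraries. The fits were tested on simulated data. Named genes were the marked gene with 5 on each side, members past an adjusted p of 0.05, the 3 smallest p per direction and fit, and the farthest per side with an unadjusted p under 0.05; Glyma.08G030100, Glyma.08G034300, Glyma.08G035900, Glyma.08G032800, Glyma.08G033200 and the border genes were added after seeing values. The members and lists were chosen with earlier results of these data known.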

Additional observations from a re-analysis of the deposited data

How the results depend on the processing

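With all 4 libraries the counts of members past an adjusted p of 0.05, 0 higher and 0 lower, were 1 and 1 with DESeq2 and 1 and 0 with transgenic status as a covariate. Leaving out 1 library gave 0 to 41 higher and 0 to 40 lower, the upper ends without untagged replicate 1 and 1 higher without untagged replicate 2. At an unadjusted p under 0.05 (2 higher, 1 lower) the covariate gave 11 and 4, DESeq2 gave 5 lower, no low-count filter 2 lower, and leaving out 1 library 1 to 49 higher and 0 to 48 lower. The replicate number as a block gave 0 lower at that limit and changed no adjusted call. Same-numbered libraries deviated with a correlation of -0.0518, so the numbers were not taken as pairs. The covariate fits the untransformed library by itself. That fit and the one without untagged replicate 2 thus repeat the comparison with the transgenic untagged plant, and neither is separate support for it. Against the transgenic untagged plant, 1 higher member became 2 with DESeq2 (Glyma.08G044000 added), 0 with limma-voom and 4 with no low-count filter, those gained being the marked gene Glyma.08G035100 (edgeR adjusted p = 0.0422), Glyma.08G041100 (0.0241) and Glyma.08G044000 (0.00869), and DESeq2 gave 5 higher and 1 lower unadjusted (11 and 5 in edgeR). Leaving out a tagged library there leaves no residual error, so only fold changes were computed.

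Directions turned at small or control-dependent values. With the covariate, log2 fold changes became 0.13 for Glyma.08G034600, 0.24 for Glyma.08G035200, 0.61 for Glyma.08G035300, 0.13 for Glyma.08G035400, -0.37 for Glyma.08G035500, 0.99 for Glyma.08G041100, 0.02 for Glyma.08G041300 and -0.51 for Glyma.08G043600. Upper-quartile scaling gave 0.07 for Glyma.08G035200. Glyma.08G044000, at -0.01, was 0.01 with at least 10 counts in every library, 0.03 with no filter, 0.18 with upper-quartile scaling, 0.95 with limma-voom, 0.95 with the replicate block and 3.20 with the covariate. Leaving out 1 library, values ran from -0.70 to 0.12 for Glyma.08G034600 (-0.26 to 0.39 in the 3 transgenic plants), -0.25 to 0.24 for Glyma.08G035200, -1.30 to 0.61 for Glyma.08G035300, -0.97 to 0.14 for Glyma.08G035400, -0.36 to 0.56 for Glyma.08G035500, -1.06 to 0.58 for Glyma.08G038400, -2.12 to 0.99 for Glyma.08G041100, -2.30 to 0.02 for Glyma.08G041300 (-0.05 to 0.09), -0.51 to 1.25 for Glyma.08G043600 and -0.93 to 3.20 for Glyma.08G044000. Those of Glyma.08G035000 ran from 2.42 to 2.92 and of Glyma.08G035100 from 1.65 to 2.61.

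The median of the nearest 10 genes ran from 0.25 to 0.54 (lower side, 0.20 in the full set) and from -0.61 to 0.09 (higher side, -0.29) over left-out libraries, and from 0.33 to 0.41 on the lower side in the 3 transgenic plants (0.39). Counted in tested genes it was 0.11 on the lower side, and 0.20 in the 3 transgenic plants. Without the untransformed plant, a comparison chosen after seeing the data, both tagged plants lay above the untagged one at 34.3% of members (34.5% of all genes) and below it at 32.5% (37.3%). The number of other stretches with a higher share of that order, 2 of 17, was 4 of 15 with stretches cut from shifted borders, 5 without the central pair, and 1 to 7 without single libraries. That for the unadjusted p, 10, was 6 of 15 with equal numbers of tested genes. The cause of these changes was not tested.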
